A study of Mus musculus with 6 samples.

Results

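Mt1 and Mt2 encode the 2 metallothioneins that most mouse cell types make, and they are 2 of the 32285 genes measured here by CITE-seq, which reads RNA and antibody tags in the same single cells. The pair was chosen by earlier results of the same data: it was selected on the level of both genes in monocytes, which was higher in floxed mice given anti-PD-1 than in those given isotype antibody. Its rows were taken by gene symbol. That contrast in that cell class is therefore described here without a test. The cells came from YUMM1.7 melanomas, grown from a mouse melanoma line injected under the skin of female C57BL/6JRccHsd mice aged 8 weeks, and were sorted for CD45.2. All 16 mice carried floxed Nr3c1, the gene of the glucocorticoid receptor. The controls (GRf/f, here "floxed") had no Cre. The others (GRf/f-LysMCre, here "LysM-Cre") also carried Cre under the Lyz2 promoter, which acts in macrophages, neutrophils and part of the monocytes, so that other host cells and the injected tumour cells are not targeted. Each genotype received isotype antibody or anti-PD-1 at 12.5 mg/kg, 2 times per week for 3 weeks from about day 7, and tumours were taken on day 28. This gave 4 conditions of 4 mice, told apart by hashtag antibodies in 2 pools of 8 mice, E5 and E6. Mice 1 and 2 of each condition were in E5 and mice 3 and 4 in E6, and the numbers only name them.

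Metallothioneins are small, cysteine-rich proteins that bind zinc and copper and buffer cells against cadmium and oxidants. Their genes are switched on by the zinc-sensing factor MTF-1 at metal response elements, and also by glucocorticoids, hypoxia, oxidants and inflammatory cytokines. Macrophages use them to withhold zinc, and in T cells of tumours they have been tied to a dysfunctional state.

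The genes lie close together on chromosome 8 (build GRCm38.p6, RefSeq annotation). Mt2 spans chr8:94172618-94173567 and Mt1 spans chr8:94178883-94180327, so that 5315 bases separate the end of Mt2 from the start of Mt1. The windows from 250 bases before to 50 after the start used by the RefSeq promoter table are shown because both genes are classical MTF-1 targets. Capitals mark the letters of the metal response element, searched as TGCACNC and TGCGCNC on both strands. The Mt1 window is chr8:94178839-94179138 and the Mt2 window is chr8:94172368-94172667, both on the plus strand. The annotated Mt1 gene begins inside its own window, before all of its marked letters. The Mt2 window is set on the annotated start of Mt2, so the windows do not cover like regions of the genes.
Mt1: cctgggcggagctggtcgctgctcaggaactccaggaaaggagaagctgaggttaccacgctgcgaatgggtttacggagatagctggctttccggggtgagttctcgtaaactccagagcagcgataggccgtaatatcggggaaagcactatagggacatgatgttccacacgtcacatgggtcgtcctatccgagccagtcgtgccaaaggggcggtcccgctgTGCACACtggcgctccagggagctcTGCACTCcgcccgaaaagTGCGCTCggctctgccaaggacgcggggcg
Mt2: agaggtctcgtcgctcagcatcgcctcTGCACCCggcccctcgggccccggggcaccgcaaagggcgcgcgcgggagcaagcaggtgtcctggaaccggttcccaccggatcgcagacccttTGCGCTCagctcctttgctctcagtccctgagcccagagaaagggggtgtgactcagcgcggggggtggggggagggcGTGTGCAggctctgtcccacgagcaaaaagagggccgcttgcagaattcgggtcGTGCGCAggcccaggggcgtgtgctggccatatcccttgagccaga

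The Mt1 window held 3 matches and the Mt2 window 4. Of 32851 promoter windows of the same length, 25.7% held at least 1 match, 1.97% at least 3 and 0.517% at least 4. The core of the hypoxia response element (ACGTG or GCGTG, both strands) occurred 2 times in each window and at least once in 43.8% of all windows, and 1 of the Mt2 matches partly overlaps a metal response element. The antioxidant element TGACNNNGC occurred 1 time in Mt2 and 0 times in Mt1, against 12.4% of all windows. The letters AGAACA, part of the glucocorticoid response element, was in neither window, against 19.0% of all. These matches describe letters in the windows only.

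The pools held 31915 barcodes with 176338827 and 221763950 gene UMIs (E5 and E6). Of 28429 barcodes that passed the filters, 17239 carried 1 hashtag, and 15861 of those fell into 14 cell classes named from markers. In all, 805 barcodes occurred in both pools, 187 of them among the cells with 1 hashtag, and leaving these out changed no direction and no call for Mt1 or Mt2. Mt1 gave 288998 UMIs over all barcodes, Mt2 44296, Mt3 1266 and Mt4 18. The targeted gene Nr3c1 was at 65.1 ± 4.22 and 61.3 ± 7.65 CPM (UMIs of the gene scaled to the total gene UMIs of the same cells, the unit of all levels here; SD, n = 4) in monocyte-like cells of floxed mice with isotype and anti-PD-1. In LysM-Cre mice it was at 47.2 ± 10.8 and 33.3 ± 6.54 CPM (n = 4 each). The genotype difference was -0.46 (SE 0.15, adjusted p = 1) under isotype and -0.95 (SE 0.16, adjusted p = 0.0911) under anti-PD-1 on the log2 scale, by edgeR's quasi-likelihood test over all genes. Counts at the 3′ end of the gene can lie outside the floxed part, so they do not measure deletion.

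Among the 10 classes with at least 3 mice of enough cells, Mt1 was highest in fibroblast-like cells and lowest in CD4 T-like cells. Levels are CPM of UMIs summed over the cells of a class in 1 mouse, and mice with fewer than 20 such cells were left out. Fibroblast-like cells, led by the collagen gene Col1a2 and by Sparc, held 2367 ± 1636 CPM of Mt1 (SD, n = 15; lowest 452, median 2317, highest 7246). Macrophage-like cells held 552 ± 139 (n = 15; 352 to 802), monocyte-like cells 438 ± 218 (n = 16; 183 to 851) and cells like type 2 conventional dendritic cells (cDC2) 434 ± 192 (n = 11; 190 to 830). Mast or basophil-like cells were at 398 ± 101 CPM (n = 3). Lymphocytes lay lower, with regulatory T-like cells at 255 ± 104 (n = 9), NK-like cells at 218 ± 165 (n = 14), CD8 T-like cells at 85.6 ± 52.1 (n = 15) and CD4 T-like cells at 72.6 ± 70.8 CPM (n = 9). Neutrophil-like cells were at 116 ± 71.2 CPM (n = 14). Over all their cells, B-like cells had 117 CPM and plasmacytoid dendritic-like cells 52.5 CPM, with too few cells per mouse for a spread.

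Of the neighbours in this order, 1 step held in every mouse: fibroblast-like cells were above macrophage-like cells in 14 of 14 mice. Macrophage-like cells were above monocyte-like cells in 12 of 15 mice, whereas monocyte-like cells were above cDC2-like cells in 5 of 11. NK-like cells exceeded neutrophil-like cells in 9 of 13 mice, and CD8 T-like cells exceeded CD4 T-like cells in 5 of 9. The ranges over mice overlapped for every pair of neighbours. No test is given for the order, since the genes may have been picked for it.

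The fibroblast-like class, found although the cells had been sorted for CD45.2, carried a large part of the metallothionein RNA. It made up 6.1% of the named cells and 16.6% of their UMIs, but 51.7% of the 105614 Mt1 UMIs and 78.4% of the 16438 Mt2 UMIs. Monocyte-like cells, 34.2% of cells, held 24.2% of Mt1 and 7.47% of Mt2 UMIs. In the fibroblast-like class the 7 fibroblast markers summed to 5001 CPM, and the 7 melanoma markers to 9.44 CPM with 1 of them at 0 and Mitf making up 8.72. Whether some of these cells are melanoma cells with low pigment genes was not tested.

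**Figure D1:**
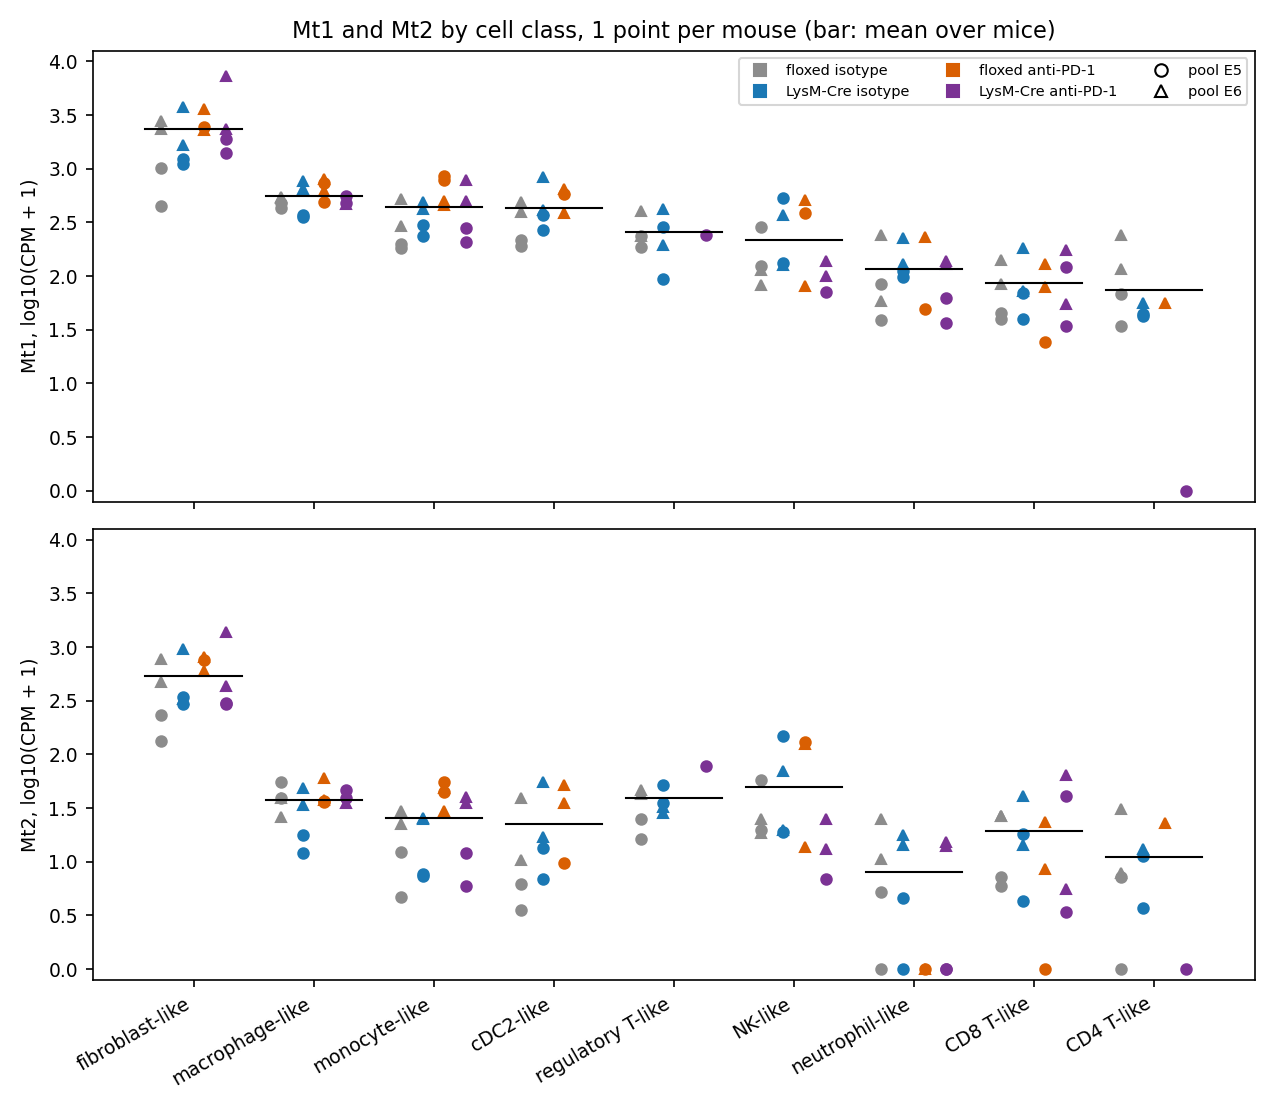
Mt1 (top) and Mt2 (bottom) in 9 cell classes as log10(CPM + 1), with 1 point per mouse, colour for condition, shape for pool and a bar at the mean over mice. Fibroblast-like cells stand highest for both genes (mean 2367 and 542 CPM), and NK-like cells come next for Mt2 by the mean (48.5 CPM, median 21.4).

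Mt2 followed another order than Mt1. Fibroblast-like cells were again highest at 542 ± 340 CPM (n = 15), and NK-like cells came second by the mean at 48.5 ± 49.6 (n = 14). The NK-like median over mice was 21.4 CPM, below regulatory T-like (34.4), macrophage-like (36.5) and monocyte-like cells (24.2). A small number of NK-like cells held most of their Mt2, as given below. Regulatory T-like cells were at 38.6 ± 18 (n = 9), macrophage-like cells at 36.6 ± 12.7 (n = 15), monocyte-like cells at 24.4 ± 16.3 (n = 16) and CD8 T-like cells at 18.4 ± 18 CPM (n = 15). Beyond the first step, no class was above its neighbour in every mouse, and NK-like cells exceeded regulatory T-like cells in 3 of 9 mice.

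The pair was therefore not in a fixed proportion. Per 100 Mt1 UMIs there were 23.6 Mt2 UMIs in fibroblast-like, 21.5 in NK-like and 20.5 in CD8 T-like cells. The same ratio was 6.5 in macrophage-like, 4.8 in monocyte-like and 4.4 in cDC2-like cells. Over mice it ran from 16.0 to 31.3 in fibroblast-like cells and from 3.1 to 11.2 in macrophage-like cells, so that these ranges did not overlap. In monocyte-like cells it ran from 1.8 to 9.8, below every fibroblast-like value. NK-like cells, at 8.3 to 33.6, overlapped with both. Levels in CD8 T-like cells were low, and the part of RNA from outside the cells in their ratio was not tested.

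**Figure D2:**
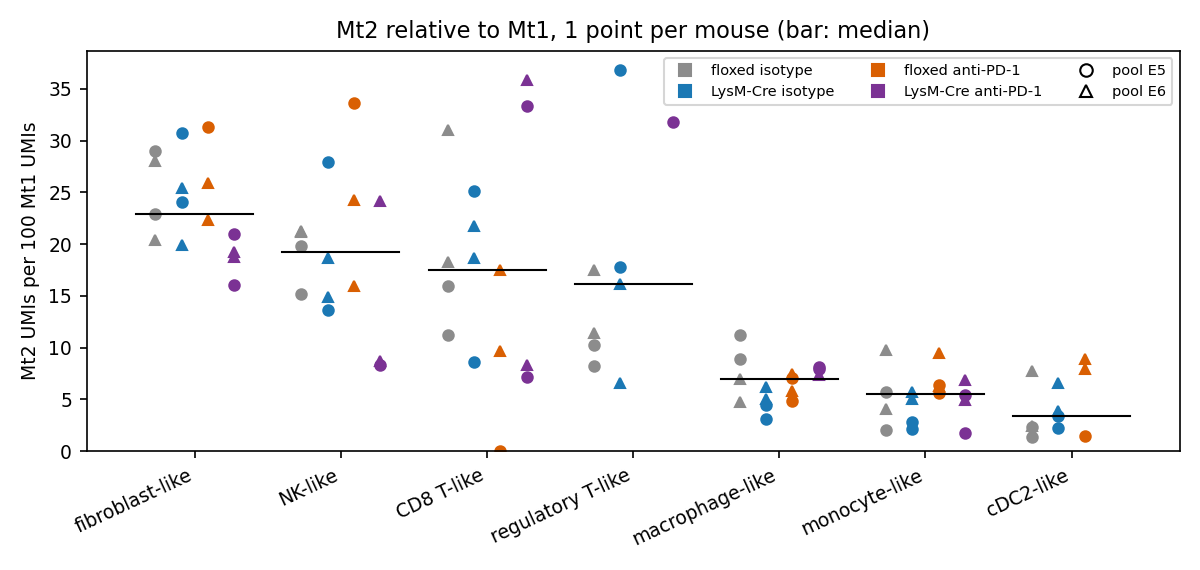
Mt2 UMIs per 100 Mt1 UMIs in 7 cell classes, 1 point per mouse with at least 20 cells, and a bar at the median. Fibroblast-like cells (median 22.9) lie above all macrophage-like (median 7.0) and monocyte-like points (median 5.5).

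The share of cells in which the genes were seen depends on depth, so each cell was also thinned to 1000 UMIs. Then 59.5% of fibroblast-like cells had a Mt1 UMI, 37.2% of macrophage-like, 23.6% of monocyte-like, 14.6% of regulatory T-like, 8.33% of NK-like and 6.67% of CD8 T-like cells. Without thinning these shares were 95.9%, 89.2%, 69.9%, 36.6%, 36.5% and 24.9%, at median depths of 25171, 14352, 10569, 4201, 9810 and 5801.5 UMIs. As a background, a CD8 T-like cluster with Tcf7 and Lef1, genes of resting T cells, was examined: 4.22% of thinned cells (95% exact binomial interval 2.88 to 5.93%) and 19.9% of unthinned cells had a Mt1 UMI, against 5.42% and 16.4% in CD4 T-like cells. Free RNA can give UMIs at that level, and the shares of CD4 T-like and plasmacytoid dendritic-like cells (4.88%) are not read as expression. Mt2 was seen in 27.5% of thinned fibroblast-like cells and in at most 3.77% of the cells of any other class. Intervals cover counting error only.

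Levels differed between the pools. Mt1 was higher in E6 than in E5 in 8 of 9 classes and Mt2 in 6 of 7. In CD8 T-like cells Mt1 rose from 52.5 ± 33.2 (n = 7) to 115 ± 49.4 CPM (n = 8), a pool term of 1.27 on the log2 scale (SE 0.25, edgeR adjusted p = 0.00749), where 1.3% of all genes tested passed. It was the 1 of 16 such terms past an adjusted p of 0.05, with 12 of 16 under an unadjusted 0.05. Of all genes, between 589 of 9329 (macrophage-like) and 846 of 7480 (CD8 T-like) had a pool term under an unadjusted 0.05. Over all barcodes Mt1 gave 72815 UMIs in E5 and 216183 in E6. The thinned CD8 T-like share with Mt1, 6.67%, was near the 4.22% of the background cluster. The part of free RNA in this pool term was not tested. In fibroblast-like cells Mt1 was at 1359 ± 639 in E5 (n = 7) and 3248 ± 1760 CPM in E6 (n = 8), with 0.0387% of genes passing. NK-like cells went the other way, at 255 ± 180 (n = 6) against 189 ± 159 CPM (n = 8), with 0.719% of genes passing. The share of genes passing for pool was 0.636% in monocyte-like, 0.279% in macrophage-like, 0.151% in cDC2-like, 0.204% in neutrophil-like, 0.311% in regulatory T-like and 0.612% in CD4 T-like cells. Every condition had mice in each pool, and the pool was a term of each model below.

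In monocyte-like cells the contrast that chose the pair looked as follows. Mt1 was at 183, 197, 523 and 295 CPM in floxed mice 1 to 4 under isotype (299 ± 157, SD, n = 4) and at 786, 851, 454 and 500 CPM in those under anti-PD-1 (648 ± 200). Both high mice were in pool E5, where the groups were far apart, whereas in pool E6 the anti-PD-1 mice (454 and 500) lay between the isotype mice (523 and 295). Mt2 was at 3.74, 11.3, 21.3 and 28.7 CPM with isotype and at 43.8, 54.8, 28.5 and 47.2 with anti-PD-1, so that 1 anti-PD-1 mouse lay within the isotype range. The fitted difference was 1.36 for Mt1 and 1.70 for Mt2 on the log2 scale (SE 0.35 and 0.42). No test is read from it, and 0.0212% of the 9431 genes passed in that contrast. In bulk sums like these, more cells of a high type and more RNA per cell cannot be told apart without the clusters.

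In LysM-Cre mice monocyte-like cells had Mt1 at 300, 237, 485 and 420 CPM with isotype (361 ± 113) and at 206, 280, 503 and 787 CPM with anti-PD-1 (444 ± 261). The groups overlapped, and the difference was 0.25 for Mt1 (SE 0.34) and 0.67 for Mt2 (SE 0.45), each with an edgeR adjusted p of 1 where 0% of genes passed. Between genotypes under isotype the difference was 0.32 for Mt1 (SE 0.34) and -0.11 for Mt2 (SE 0.44), where 0% of genes passed. Under anti-PD-1, LysM-Cre monocytes were lower by 0.78 for Mt1 (-0.78, SE 0.35) and by 1.14 for Mt2 (-1.14, SE 0.43), where 0% of genes passed. Both genotype contrasts share floxed mice with the contrast that chose the pair, so no test of Mt1 or Mt2 is read from them. The anti-PD-1 change in LysM-Cre minus that in floxed mice was -1.10 for Mt1 and -1.03 for Mt2, given without a test for the same reason.

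A single monocyte-like cluster held much of this RNA. It was led by Nos2, the inducible nitric oxide synthase, Mmp12, Inhba and Cxcl3, with Hilpda and Ndrg1, genes known to respond to hypoxia, among its top genes. Its 613 cells were 11.3% of monocyte-like cells and held 32.9% of their Mt1 and 51.2% of their Mt2 UMIs. Mt1 was at 1247 CPM in it and at 327 CPM in the other monocyte-like cells, and Mt2 at 93.6 and 11.5 CPM. The other 4 clusters ranged from 217 CPM of Mt1 in the cluster led by interferon-stimulated genes such as Rsad2 to 359 CPM in the largest cluster. Median depth was 10633 UMIs in the Nos2 cluster and 10559.5 in the rest, and 14 of its cells were called doublets by Scrublet.

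The share of monocyte-like cells in the Nos2 cluster was 8.60, 2.84, 6.13 and 1.18% in floxed isotype mice (4.69 ± 3.32%). It was 50.4, 30.3, 11.3 and 9.82% in floxed anti-PD-1 mice (25.5 ± 19.1%), where mouse 1 alone gave 249 of the cells and mouse 2 had 33 monocyte-like cells in all. In LysM-Cre mice it was 6.68 ± 4.43% under isotype and 12.5 ± 4.33% under anti-PD-1 (n = 4 each). The clusters were made without Mt1 and Mt2, but with the genes that lead this one, so its size is given as a description.

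With that cluster left out, monocyte-like Mt1 of floxed mice was at 265 ± 159 CPM under isotype and 318 ± 44.2 under anti-PD-1. LysM-Cre mice then had 316 ± 85.6 and 302 ± 169 CPM (n = 4 each). The 4 ranges overlapped, as they did with the cluster. The fitted difference in floxed mice went from 1.36 to 0.39 for Mt1 and from 1.70 to -0.37 for Mt2. The genotype difference under anti-PD-1 went from -0.78 to -0.16 for Mt1 and from -1.14 to 0.71 for Mt2. Within the Nos2 cluster, mice with at least 20 of its cells had 490 and 973 CPM of Mt1 (floxed, isotype), 1308 and 1225 (floxed, anti-PD-1), 653 (LysM-Cre, isotype) and 1718 and 2110 CPM (LysM-Cre, anti-PD-1). In mice with fewer of its cells Mt1 was at 431, 636, 2113 and 2576 CPM with anti-PD-1 and between 1077 and 3310 CPM with isotype, so that over all mice the treatments overlapped.

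**Figure D3:**
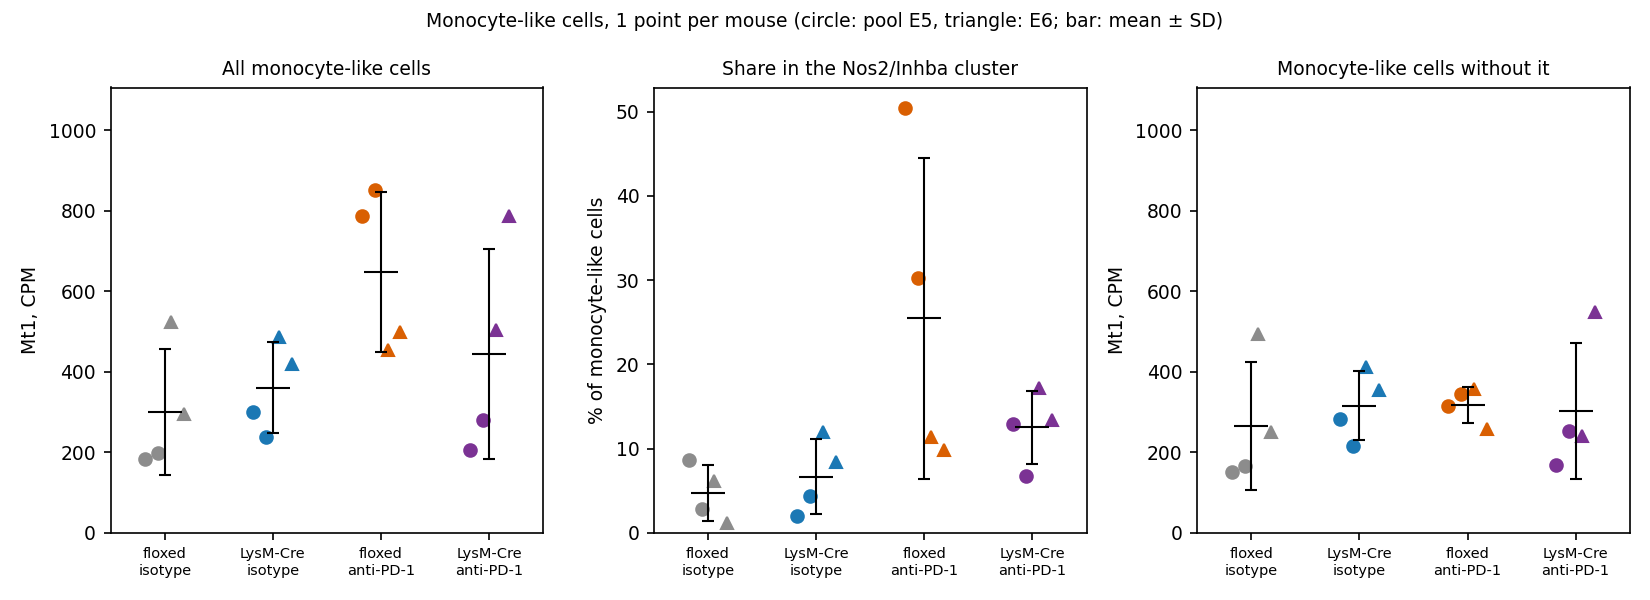
Monocyte-like cells of each mouse by condition (circle: pool E5, triangle: pool E6, bar: mean ± SD). The panels show Mt1 in all of them (CPM), the percentage in the Nos2 and Inhba cluster, and Mt1 without that cluster. Floxed anti-PD-1 mice average 648 CPM with the cluster and 318 CPM without it.

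Summed fibroblast and melanoma markers in monocyte-like cells overlapped between floxed anti-PD-1 and floxed isotype mice. The summed 7 fibroblast markers were between 18.6 and 45.1 CPM in floxed anti-PD-1 and between 28.5 and 35.6 CPM in floxed isotype mice, against 5001 CPM in fibroblast-like cells. The 7 melanoma markers summed to 17.9 to 25.9 and 17.5 to 27.1 CPM in the same groups.

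Other gene groups in the same monocyte-like fits were counted from fixed lists. Of the hypoxia and glycolysis genes, 17 of 18 tested were higher with anti-PD-1 in floxed mice (median 0.48, against -0.015 for all genes), and 1 passed: Ndrg1, a hypoxia-induced growth regulator, at 1.92 (SE 0.28, edgeR adjusted p = 0.0284). Of the oxidative stress genes, 12 of 14 were higher (median 0.40), with 0 past the threshold. The most abundant were Txn1 (595 ± 26.8 and 803 ± 61.1 CPM), Prdx1 and Gsr, which act in thiol and peroxide reduction. Of 22 metal handling genes, which include zinc transporters, the sensor Mtf1 and copper chaperones, 11 were higher and 11 lower (median -0.011), and 0 passed. Of its 3 most abundant members, Atox1, a copper chaperone, was at 1002 ± 156 and 919 ± 128 CPM, and Sod1, a copper and zinc enzyme, at 97.6 ± 8.59 and 89.3 ± 13.5 CPM (floxed isotype and floxed anti-PD-1, SD, n = 4 each). The zinc importer Slc39a1 was at 68.9 ± 4.93 and 68.3 ± 8.59 CPM. The glucocorticoid-response genes had 15 of 21 higher (median 0.16) and 0 past the threshold. The most abundant of them, Dusp1, a phosphatase induced by glucocorticoids and by stress, was at 1055 ± 343 and 1257 ± 399 CPM, followed by Zfp36 and Rgs1. Of the dissociation stress genes, which include Fos, Jun and Junb, 12 of 14 were higher (median 0.27) and 0 passed. Under anti-PD-1, LysM-Cre against floxed, 1 of 18 hypoxia, 3 of 14 oxidative stress and 0 of 14 dissociation stress genes were higher. So were 6 of 21 glucocorticoid-response and 13 of 22 metal handling genes, with 0 past the threshold in any list. Of all 9431 genes, 52.4% were higher in that contrast (median 0.014) and 47.9% with anti-PD-1 in floxed mice. These list counts share the floxed anti-PD-1 mice with those before. All list counts include the Nos2 cluster, which has Ndrg1 among its top genes. Its mean share of cells was highest in floxed anti-PD-1 mice. How far the list counts reflect that share, rather than levels within the other monocyte-like cells, was not tested.

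Over the 16 mice, with condition and pool means removed, monocyte-like Mt1 was compared with the median level of 4 of the lists, as was that of macrophage-like cells over 15 mice, giving 8 relations. It went with the glucocorticoid-response list (Pearson r = 0.788, permutation p = 0.00042, adjusted over 8 relations p = 0.00336; Spearman rho = 0.659, permutation p = 0.00648, adjusted p = 0.0518). Without the 2 mice farthest from the median r was 0.668. Computed for each pool apart, r was -0.418 in E5 and 0.759 in E6 (8 mice each), so the sign differed. These values are not a split of the same residuals, since the r over both pools is above each of them. No conclusion on a single pool is drawn. Without the Nos2 cluster r was 0.376 (permutation, adjusted p = 0.302). The monocyte-like values include the floxed mice that chose the pair, so this relation is read as a description only. The residuals were permuted freely after condition and pool means had been removed, so the permutation p-values can be too small. The other 3 lists in monocyte-like cells had r between 0.267 and 0.372 and the 4 in macrophage-like cells between -0.227 and 0.156, with adjusted permutation p-values from 0.621 to 0.888.

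Whether a mouse that was high in 1 class was high in others was tested for 21 class pairs. None passed after adjustment. The highest Pearson r was that of monocyte-like against cDC2-like cells (11 mice, r = 0.726, rho = 0.682, permutation p = 0.0119 and 0.0259, adjusted p = 0.248 and 0.272, r = 0.542 without the 2 farthest mice). The highest Spearman rho was that of fibroblast-like against cDC2-like cells (11 mice, rho = 0.755, r = 0.642, permutation p = 0.00965 and 0.0354, adjusted p = 0.203 and 0.248, r = 0.570 without the 2 farthest mice). Monocyte-like against macrophage-like cells gave r = 0.019 over 15 mice. The monocyte-like values include the floxed mice by which Mt1 and Mt2 were chosen. Relations with monocyte-like cells are therefore read as a description only.

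In NK-like cells Mt1 was at 286, 124, 114 and 82.5 CPM in floxed isotype mice (152 ± 91.5) and at 131, 533, 368 and 126 CPM in LysM-Cre isotype mice (289 ± 198, n = 4 each). With anti-PD-1 it was at 386, 80.0 and 507 CPM in floxed mice 1, 3 and 4 (324 ± 220) and at 70.7, 139 and 99.3 CPM in LysM-Cre mice 1, 3 and 4 (103 ± 34.2, n = 3 each). The other mouse of each of these groups had under 20 NK-like cells. All 4 ranges overlapped, and by summed UMIs 2 of the 3 floxed anti-PD-1 mice were above every LysM-Cre anti-PD-1 mouse. As the mean of single-cell CPM, Mt1 was at 116, 92.1 and 211 in those floxed mice. In those LysM-Cre mice it was at 59.5, 117 and 62.04, so only floxed mouse 4 was above all of them. In cells thinned to 1000 UMIs, the share with a Mt1 UMI was 11.1 to 12.2% in the floxed mice. In the LysM-Cre mice it was 12.1, 11.5 and 0%. How far the fitted anti-PD-1 terms below rest on few cells was not tested.

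The fitted genotype difference in NK-like cells was 0.97 for Mt1 and 1.13 for Mt2 under isotype (SE 0.44 and 0.51, edgeR adjusted p = 1) and -1.78 and -2.78 under anti-PD-1 (SE 0.66 and 1.05, adjusted p = 0.886 each). With anti-PD-1 against isotype it was 1.20 and 1.74 in floxed mice (edgeR adjusted p = 0.968) and -1.55 and -2.17 in LysM-Cre mice (adjusted p = 0.707 and 0.721). The anti-PD-1 change in LysM-Cre minus that in floxed mice was -2.75 (SE 0.79) and -3.91 (SE 1.16), with an edgeR adjusted p of 1 for each. In each of these contrasts 0% of the 5840 genes passed. Without the filter on low counts all of these terms passed for both genes, with edgeR adjusted p-values from 4.61e-22 to 1.34e-05. That fit called between 2 and 506 genes in the condition contrasts of all classes. Its estimates hardly moved while the SEs fell. For Mt1 the SE went from 0.79 to 0.26 for the difference of changes and from 0.44 to 0.15 for genotype under isotype. The mice were the same, so these p-values are not read as support. In NK-like cells thinned to 1000 UMIs, the share with a Mt1 UMI was 11.6 ± 3.88% in LysM-Cre and 5.14 ± 3.72% in floxed isotype mice (n = 4 each; exact permutation p = 0.0286, the smallest 4 against 4 can give; adjusted over 60 share tests p = 1). At 2000 UMIs the shares were 17.5 ± 6.50% and 11.9 ± 5.01% (exact permutation p = 0.229) and unthinned 40.5 ± 9.30% and 33.7 ± 6.82% (exact permutation p = 0.229), and the mice of the groups overlapped. The summed fibroblast markers were 1.99 to 42.5 CPM in the NK-like sums of every condition.

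Few NK-like cells carried most of this RNA. The 47 cells with at least 10 Mt1 UMIs, 4.16% of 1131, held 69.7% of the Mt1 and 76.0% of the Mt2 UMIs of the class. They came from 11 mice, with at most 13 from 1 mouse, and 1 was called a doublet by Scrublet. The threshold was set after the values were seen, so their other genes are described without a test.

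These cells were rich in a set of neighbouring granzymes, the proteases that killer cells release. Gzmg was at 1948 CPM in them and 39.5 in the other NK-like cells, Gzmf at 15513 and 1338, Gzmd at 6523 and 699, and Gzme at 2438 and 290. Gzmb, the main granzyme of most killer cells, was level at 1392 and 1396 CPM, and Gzma was lower at 1496 and 2940. Ccl5, a chemokine of cytotoxic cells, was at 105 and 1541 CPM. Tsc22d3, a classical glucocorticoid-induced gene, was at 38.6 and 139 CPM, and Nr3c1 at 27.4 and 67.0 CPM.

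The Mt1-high NK-like cells were also deeper, at a median of 19171 against 9494.5 UMIs, and their summed macrophage markers were 1448 against 802 CPM. Their part in the result was not tested. Among cells of at least 10000 UMIs, the 24 with Mt1 at 1000 CPM or more held 62.5% of the Mt1 and were led by the same Gzmg, Gzmf, Gzmd and Gzme, with 0 Scrublet calls. These 24 were still deeper than the 527 others (median 18717.5 against 14034 UMIs) and had more Spp1, a gene also made by macrophages, at 5896 against 1165 CPM, while their summed macrophage markers were 369 against 790 CPM. In the 4 mice with at least 5 of the 47 cells, Gzmd and Gzmg were higher and Ccl5 was lower in those cells than in the mouse's other NK-like cells, at any depth. Gzmf was higher in 3 of them and was at 0 against 566 CPM in LysM-Cre isotype mouse 4.

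**Figure D4:**
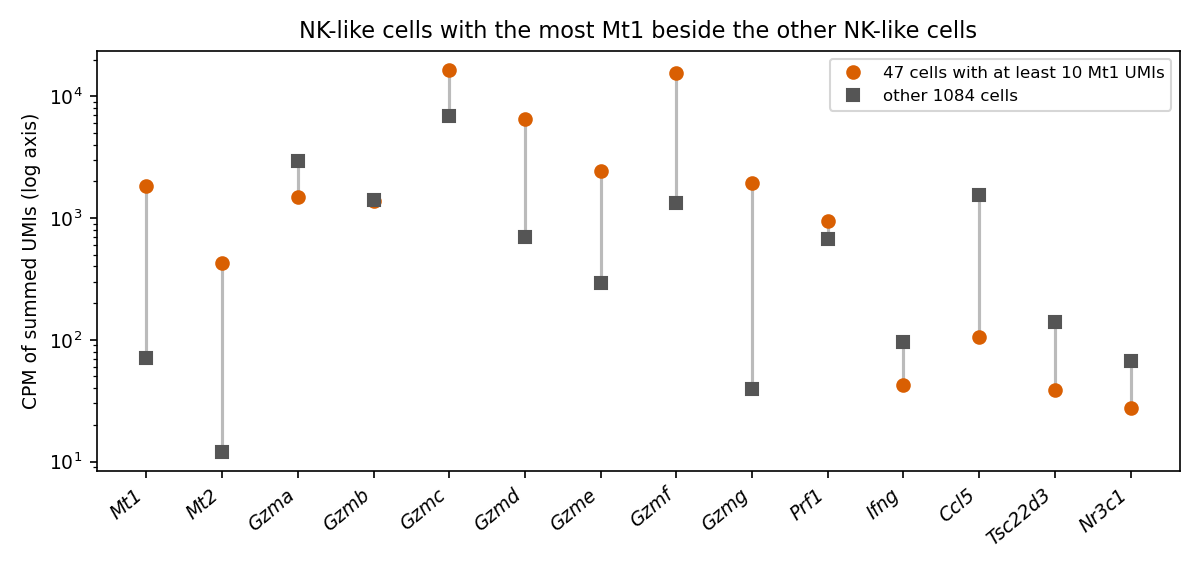
CPM of summed UMIs (log axis) for Mt1, Mt2, granzymes and other genes in the 47 NK-like cells with at least 10 Mt1 UMIs and in the other 1084. Gzmd to Gzmg are higher in the Mt1-high cells, Gzmb is level and Ccl5 is lower.

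Fibroblast-like cells varied widely between mice. Mt1 was at 1018, 452, 2770 and 2324 CPM in floxed isotype mice and at 1230, 1105, 3744 and 1655 CPM in LysM-Cre isotype mice. With anti-PD-1 it was at 2432, 2317 and 3602 CPM in floxed mice 1, 3 and 4, and at 1888, 1390, 2329 and 7246 CPM in LysM-Cre mice. All 4 ranges overlapped, and the highest value was LysM-Cre anti-PD-1 mouse 4, with 51 cells. With anti-PD-1 in floxed mice the difference was 0.92 for Mt1 and 1.05 for Mt2 (SE 0.39 and 0.44, edgeR adjusted p = 0.558 and 0.557), where 0.029% of the 10349 genes passed. In LysM-Cre mice it was 0.63 and 0.20, and the genotype difference was 0.38 and 0.42 under isotype and 0.09 and -0.43 under anti-PD-1, none past the threshold, where 0% of genes passed. Without the filter on low counts the floxed differences passed (0.90, adjusted p = 5.27e-12, and 1.02, adjusted p = 7.68e-10), as did Mt1 in LysM-Cre mice (0.63, adjusted p = 1.34e-06).

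Macrophage-like Mt1 ran from 352 to 802 CPM over mice, and from 352 to 771 CPM within the LysM-Cre isotype mice. Floxed mice averaged 497 ± 53.6 CPM under isotype and 664 ± 137 under anti-PD-1 (n = 4 each). LysM-Cre mice averaged 534 ± 207 (n = 4) and 500 ± 49.5 CPM (n = 3). With anti-PD-1 in floxed mice Mt1 was higher by 0.47 (SE 0.19, edgeR adjusted p = 0.263) and Mt2 by 0.15 (adjusted p = 0.883), where 0.729% of the 9329 genes passed. In the other 3 contrasts Mt1 differed by -0.33 to 0.11 and Mt2 by -0.52 to 0.59, with 0% of genes passing. Without the filter on low counts Mt1 passed in floxed mice (0.45, adjusted p = 0.0237). Nr3c1 in these cells was at 65.9 ± 15.8 and 57.3 ± 7.0 CPM in floxed mice with isotype and anti-PD-1, and at 44.0 ± 24.3 and 22 ± 2.33 CPM in LysM-Cre mice. The genotype difference of Nr3c1 was -0.47 under isotype and -1.32 under anti-PD-1 (edgeR adjusted p = 1 and 0.535).

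The remaining classes gave 0 calls for the pair. In cDC2-like cells Mt1 was higher by 0.79 with anti-PD-1 in floxed mice (SE 0.29, edgeR adjusted p = 0.791) and by 0.60 in LysM-Cre isotype mice (SE 0.27, adjusted p = 1), with 0% of genes passing. In CD8 T-like cells Mt2 was higher by 1.93 in LysM-Cre anti-PD-1 than in floxed anti-PD-1 mice (SE 0.86, edgeR adjusted p = 0.909), where 0.0134% of genes passed. The groups held 2.37, 40.3, 4.55 and 62.7 CPM against 0, 7.55 and 22.6 CPM, and overlapped. Without the filter on low counts this difference passed, as did that of Mt1 in floxed cDC2-like cells. With anti-PD-1 in LysM-Cre mice 0.0267% of CD8 T-like genes passed and Mt1 differed by 0.13 (SE 0.35). In CD4 T-like cells Mt1 was lower by 0.91 in LysM-Cre isotype mice (-0.91, SE 0.39, edgeR adjusted p = 0.999), where 0.0266% passed, and in regulatory T-like cells it differed by -0.07 (adjusted p = 1), where 0.0183% passed. In neutrophil-like cells the differences in Mt1 were 0.41 by genotype with isotype and -0.56 with anti-PD-1 in LysM-Cre mice (adjusted p = 1 and 0.999). Mt2 was too low to be tested in CD4 T-like and neutrophil-like cells.

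In all, 43 tests of Mt1 or Mt2 were made between conditions in 9 classes, leaving out the monocyte-like contrasts that include floxed mice. By edgeR 0 passed an adjusted p of 0.05 and 15 had an unadjusted p under 0.05, the lowest adjusted value being 0.263. Both genes in each NK-like contrast are among the 15. Of all genes, the share under an unadjusted 0.05 was lowest in cDC2-like cells by genotype under isotype (134 of 5942). It was highest in macrophage-like cells with anti-PD-1 in floxed mice (1313 of 9329). By DESeq2 0 of 46 passed, 9 had an unadjusted p under 0.05 and 4 were given no adjusted p. No gene at all passed in 19 of the 26 condition contrasts by edgeR. Of 8 terms for a difference in the anti-PD-1 change between genotypes in other classes, 0 passed and 2 had an unadjusted p under 0.05, Mt1 and Mt2 in NK-like cells. For that NK-like term 223 of all 5840 genes were under an unadjusted 0.05. The mice of 1 condition enter several of these contrasts, so they are not independent of each other.

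**Figure D5:**
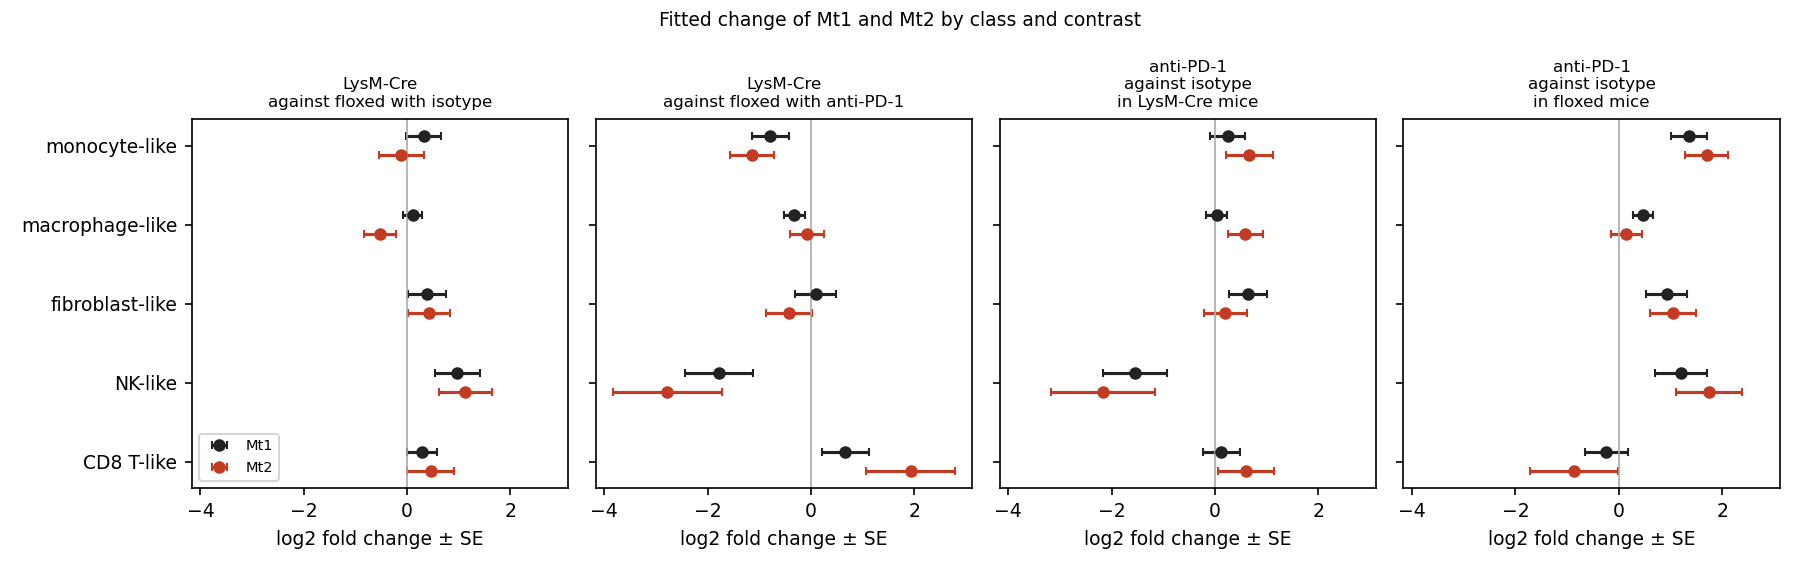
Fitted log2 fold change ± SE of Mt1 and Mt2 in 5 cell classes for the 4 contrasts, from edgeR with pool as a term. The panel for anti-PD-1 in floxed mice includes the monocyte-like values that chose the pair (1.36 and 1.70), and NK-like values are positive in that panel and negative in LysM-Cre mice (1.20 and -1.55 for Mt1).

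The genes most like Mt1 over 38 means of class and condition were Phf10 (Pearson r = 0.889 of log2(CPM + 1), 8221 genes ranked), Dag1, Ube2e3, Tcf4, Atpif1, Rab12, Arl1 and Eif1a (r = 0.848), and Mt2 was rank 30 (r = 0.799). The points share mice and libraries. In monocyte-like cells, over residuals of 16 mice, they were Igf1r (r = 0.925, 7234 genes ranked), F10, Aopep, Chil3, Vsir, Sntb2, Ecm1 and Ift46 (r = 0.834), with Mt2 at rank 132 (r = 0.681). The 2 rankings shared none of the 8 genes.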

How the data were processed

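Cells of the 16 mice were measured in 2 pools. The deposited values are UMI counts per gene, antibody and barcode, made by the authors with Cell Ranger (6.1.2 per the file headers, 3.0.1 with build mm10 per the submitters' processing notes). The notes on strain also differ (C57BL/6J and C57BL/6JRccHsd), as does the number of antibodies (89 stated, 88 in the matrix besides 8 hashtags). The deposited antibody table prints the same sequence for hashtags 8 and 9, which both mark floxed isotype mice, so this bears on which of those mice a cell is given to. From these counts, barcodes with at least 500 UMIs and 200 genes and at most 10% mitochondrial UMIs were kept. Hashtags were called with HTODemux (Seurat 5.3.0, quantile 0.99), which removed 8307 barcodes with more than 1 hashtag and 2883 with none. Scrublet marked 758 of the remaining cells (4.397%), which were kept and left out in an alternative. Cells were clustered without Mt genes (scanpy 1.11.5, leidenalg 0.10.2, 2000 variable genes, 30 components, 15 neighbours, resolution 1.0) and named from marker lists, with 1378 cells (7.994%) unnamed. Names are rebuilt and may differ from the authors'.

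Counts were summed per mouse and class (at least 20 cells, at least 3 mice per condition) and tested with edgeR 4.0.16 (quasi-likelihood, TMM, filterByExpr, pool as a term), with Benjamini-Hochberg adjustment over all genes. DESeq2 1.42.0 was an alternative. No p is given for Mt1 or Mt2 in monocyte-like contrasts that include floxed mice, although tests of the genotype there had been planned. Library totals were 176338827 and 221763950 gene UMIs. Intervals and depth cover counting error only. The script was tested on simulated data. Members and lists were chosen with earlier results of these data known. The rule for naming clusters, the pool and interaction terms, the Mt1-high cells and the removal of the Nos2 cluster or of shared barcodes were chosen after the data were seen. Named genes are Mt1, Mt2, Nr3c1, list members that passed or otherwise the 3 most abundant of a list, and the 8 genes most like Mt1 among those with a mean of at least 10 CPM. Genes leading the Nos2 cluster or the Mt1-high cells were chosen after their values were seen. Correlations used log2(CPM + 1) with 100000 permutations. Residuals were permuted as if independent although condition and pool means had been removed, so the p-values of all correlations across mice can be too small. Mt1 and Mt2 are similar in sequence, and reads that fit both could be lost.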

Additional observations from a re-analysis of the deposited data

Results flagged for a closer look

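In 46 groups of 4 mice, 4 values stood far from the other 3 mice of their condition, and chance alone gives about 1 in 20. Mt1 in fibroblast-like cells of LysM-Cre anti-PD-1 mouse 4 was at 7246 CPM, against 1390, 1888 and 2329 CPM in the others, from 51 cells. Mt2 in the same cells of that mouse was at 1396 CPM, against 291, 302 and 436 CPM. Mt2 in fibroblast-like cells of LysM-Cre isotype mouse 3 was at 952 CPM, against 296, 329 and 339 CPM, from 86 cells. Mt2 in macrophage-like cells of floxed anti-PD-1 mouse 4 was at 59.9 CPM, against 34.8, 36.0 and 36.5 CPM, from 114 cells. All 4 values came from pool E6.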

How the results depend on the processing

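Of the changes in Mt1 and Mt2, 813 values with 1 mouse left out kept direction and call and 28 turned direction. Under other settings 516 were kept, 17 newly passed (all without the filter on low counts), 14 turned and 1 moved. None of the turned values had passed a test. Without the filter on low counts, these passed (Mt1, then Mt2): NK-like cells with anti-PD-1 in floxed (1.15, 1.68) and LysM-Cre mice (-1.60, -2.21), their difference (-2.75, -3.89), and the genotype under anti-PD-1 (-1.81, -2.80) and isotype (0.94, 1.09). So did anti-PD-1 in floxed fibroblast-like cells (0.90, 1.02), Mt1 there in LysM-Cre mice (0.63), the difference for Mt2 (-0.82) Mt1 in floxed macrophage-like (0.45) and cDC2-like cells, and Mt2 by genotype under anti-PD-1 in CD8 T-like cells. Estimates of the NK-like, fibroblast-like and macrophage-like terms hardly moved in that fit, whereas their SEs fell. For Mt1 with anti-PD-1 in floxed fibroblast-like cells the SE went from 0.39 to 0.12. Monocyte-like contrasts with floxed mice were given no test. The cause was not tested.

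Without the Nos2 cluster, monocyte-like Mt1 and Mt2 gave 0.39 and -0.37 in floxed and -0.099 and -0.12 in LysM-Cre mice. Mt2 gave 0.71 (genotype, anti-PD-1), 0.46 (genotype, isotype) and 0.25 (difference of changes), and r with the glucocorticoid, hypoxia and metal lists was 0.376, -0.182 and -0.291. At resolution 2.0 CD4 T-like Mt1 was 0.048, CD8 T-like Mt1 and Mt2 with anti-PD-1 in LysM-Cre mice -0.32 and -0.31, and the CD8 T-like difference for Mt1 -0.17. Macrophage-like Mt1 in LysM-Cre mice was -0.13 with at least 50 cells, -0.12 with at most 5% mitochondrial UMIs and -0.095 without the pool term. Regulatory T-like Mt1 was 0.069 without Scrublet calls. Mast or basophil-like Mt2 was 34.5 CPM under another hashtag rule. The monocyte-like share with Mt1 in LysM-Cre mice differed by -0.917 points at 2000 UMIs and -0.589 unthinned. The cause was not tested.

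With 1 mouse left out, values whose direction turned ran as follows. Mt1: CD8 T-like -0.013 to 0.55 (genotype, isotype), -0.19 to 0.43 (LysM-Cre) and -0.61 to 0.022 (floxed), fibroblast-like -0.30 to 0.60 (genotype, anti-PD-1) and -0.66 to 0.20 (difference), macrophage-like -0.072 to 0.22 (genotype, isotype) and -0.10 to 0.26 (LysM-Cre), monocyte-like -0.059 to 0.44 (LysM-Cre), regulatory T-like -0.47 to 0.15. Mt2: CD8 T-like -0.058 to 0.98 (LysM-Cre), cDC2-like -0.011 to 1.3 (genotype, isotype), fibroblast-like -0.89 to 0.24 (genotype, anti-PD-1) and -0.26 to 0.52 (LysM-Cre), macrophage-like -0.20 to 0.13 (genotype, anti-PD-1) and -0.075 to 0.38 (floxed), monocyte-like -0.35 to 0.070 (genotype, isotype), regulatory T-like -0.15 to 0.80. In floxed monocyte-like cells Mt1 ran from 1.10 to 1.66 and Mt2 from 1.04 to 2.19. DESeq2 gave no interaction or pool values, which were not run. No paired analysis was possible because the mice carry no replicate numbers in the labels.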

Other observations

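Within fibroblast-like cells, the 97 cells with the highest Mt1 CPM held 44.4% of the Mt1 and 38.0% of the Mt2 UMIs of the class. Compared with the other fibroblast-like cells they had more of the interferon-induced chemokine Cxcl9 (595 against 68.4 CPM), of Cxcl10 (1107 against 297), of the monocyte-attracting Ccl2 (823 against 198), of the transcription factor Cebpd (618 against 152) and of the matrix protein Mgp (30442 against 11433). They came from 14 mice, with at most 24 from 1 mouse, and 39 of them were called doublets by Scrublet, at a median of 17752 against 26064 UMIs. Within macrophage-like cells, the 174 cells with the most Mt1 held 34.7% of the Mt1 and 54.6% of the Mt2 UMIs. Their leading genes were Retnla (128 against 7.61 CPM), Saa3 (95.2 against 16.9), the haemoglobin scavenger receptor Cd163 (65.8 against 10.5), the haem-degrading Hmox1 (359.7 against 139.7) and the hypoxia-induced Hilpda (82.6 against 17.9) and Vegfa (65.4 against 18.8), with 49 cells from 1 mouse and 13 Scrublet calls. All of these genes were chosen after their values were seen and carry no test.

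Clusters within a class differed as well. Among CD8 T-like cells Mt1 was at 145 CPM in the cluster with Ifng, Pdcd1 and Lag3, genes of activated or exhausted T cells, at 59.2 CPM in the cluster led by Gzmk and at 36.4 CPM in the one with Tcf7 and Lef1. Among mast or basophil-like cells it was at 574 CPM in the cluster led by the mast cell proteases Mcpt2 and Mcpt4 and at 73.9 CPM in the 33 cells led by the basophil protease Mcpt8. The former value rests on 605 Mt1 UMIs and the latter on 8, with no mouse giving 20 of the Mcpt8 cells. Mt3, a relative known mainly from brain, gave 342 UMIs in 20 unnamed cells led by Ctsk, the osteoclast protease, where it was at 642 CPM beside Mt1 at 1060 and Mt2 at 37.5 CPM. Over all unnamed cells, floxed anti-PD-1 mouse 3 alone gave 218 Mt3 UMIs, the most of any mouse.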
